A study of Mus musculus with 6 samples.

Results

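Naive pluripotency transcription factors hold mouse embryonic stem cells in the state of the early epiblast. The messenger RNA of 10 of them was compared here between cells labelled Max-/- and cells labelled wild type. The 10 genes were chosen by name, Klf2, Klf4, Klf5, Esrrb, Tfcp2l1, Tbx3, Prdm14, Nr5a2, Nr0b1 and Zfp42, out of 55536 Ensembl genes listed in each library. All 10 were found and all 10 were above 1 FPKM in every library, so none entered the test through 1 group alone. FPKM is the number of sequenced fragments per kilobase of transcript and per 1 M mapped fragments, and it allows levels of different genes to be compared.

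The libraries came from 3 samples labelled Max-/- (called Max-KO here) and 3 labelled wild type (WT), numbered 1 to 3 in each group. All were embryonic stem cells of strain C57BL/6, and RNA was extracted with Trizol. The sources used here do not give the culture medium, the use of feeder cells, the number of clones behind the Max-/- cells or the way the allele was made. They also leave unsaid whether the 3 samples of a genotype were grown apart, so the p-values cover sample-to-sample spread, which may be technical. Max, the partner through which MYC proteins bind DNA, was listed at 35.8, 39.6 and 43.4 FPKM in Max-KO 1 to 3, against 41.6, 50.2 and 42.3 FPKM in WT 1 to 3. Gene-level FPKM cannot show the loss of single exons, so these values are no check of the genotype, and all comparisons rest on the labels.

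Depth is not stated by FPKM, but the steps between low values corresponded to an estimated 21.1 to 28.3 M fragments in Max-KO libraries and 22.6 to 25.1 M in WT libraries. At that depth 1 FPKM in a transcript of 2000 bases stood for about 36.5 to 49.2 fragments. Summed FPKM was 645169 to 658361 in Max-KO libraries and 743406 to 774405 in WT libraries. Mitochondrial genes held 3.67% of it in WT 3, and 5.11% to 5.65% in the other 5 libraries. The calls of the 10 factors given below, 8 higher and 1 lower, were the same without WT 3.

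Naive pluripotency is the state of the epiblast before implantation, and mouse embryonic stem cells keep it in culture with the cytokine LIF. In these cells LIF acts through STAT3 on Klf4 and Tfcp2l1, phosphoinositide 3-kinase signalling feeds Tbx3, and WNT signalling lifts the repressor TCF7L1 from Esrrb, while FGF and ERK signalling pushes cells out of the state. The factors bind one another's genes together with OCT4, SOX2 and NANOG, so that several of them can stand in for each other. MAX pairs with MYC proteins on activated genes and with MGA in the PRC1.6 repressor complex.

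Of the 10 factors, 8 were higher in Max-KO cells, 1 was lower and 1 missed the threshold (limma on log2(FPKM + 1), Benjamini-Hochberg adjusted p under 0.05 over 14661 genes tested). The 8 were Klf2, Klf4, Klf5, Tfcp2l1, Tbx3, Prdm14, Nr5a2 and Zfp42, the gene that fell was Nr0b1, and Esrrb was not called. Among the 8, 5 rose by at least 1 on the log2 scale, led by Tbx3. As background, 43.0% of all genes tested were called higher, 23.2% were called lower, 66.2% were called in either direction, 13.9% were called higher by at least 1, and 4.86% lower by at least 1. The median log2 difference (Max-KO minus WT) of the 10 was 1.07, beside 0.21 over all genes tested. That shift of all genes depended on scaling: 0.04 with median-ratio scaling, −0.02 with quantile normalization and 0.43 as TPM. Groups did not overlap for 9 of the 10 factors, beside 72.0% of all genes tested. In bulk RNA such as this, more or fewer cells with a gene on and more or less of its RNA per cell cannot be told apart.

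**Figure D1:**
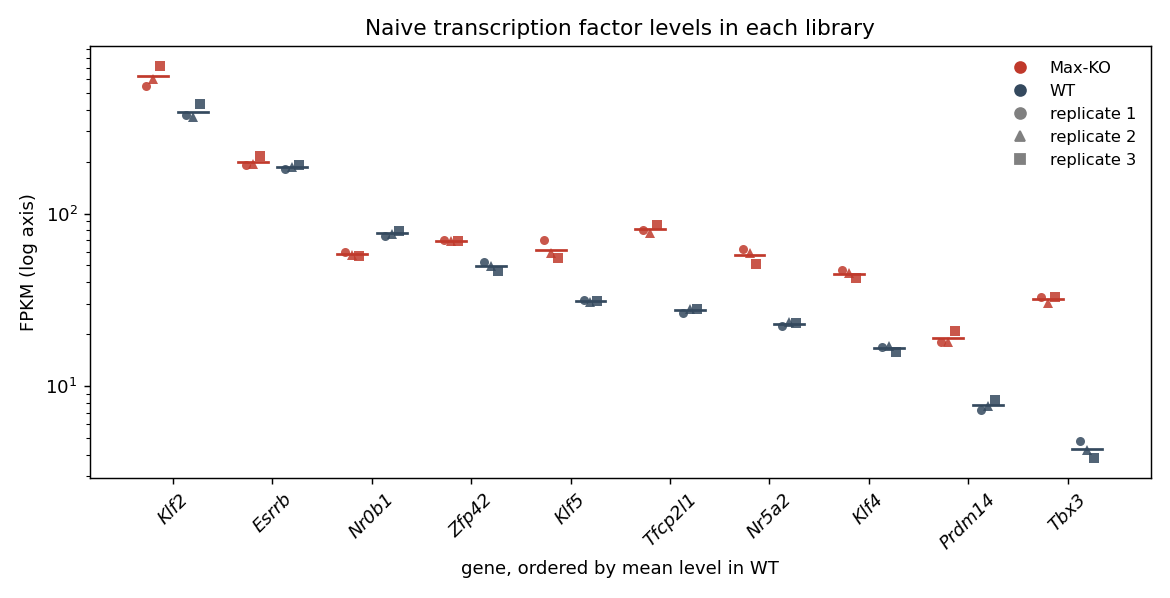
FPKM on a log axis for the 10 factors, ordered by mean WT level, with 3 Max-KO libraries (red) left of 3 WT libraries (dark) and a bar at each mean; marker shapes are replicate numbers. Tbx3 stands at 30.3 to 32.9 FPKM in Max-KO libraries and 3.82 to 4.83 FPKM in WT libraries, and the groups overlap only for Esrrb.

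Klf2, Klf4 and Klf5 encode Krüppel-like zinc finger factors that bind GC-rich and CACCC sites and can replace each other in self-renewal. Klf2 (ENSMUSG00000055148; GRCm38 chromosome 8, 72319033 to 72321656, plus strand) was the most abundant of the 10 factors in both groups. It was listed at 552, 604 and 722 FPKM in Max-KO 1 to 3, against 375, 364 and 430 FPKM in WT 1 to 3. All Max-KO libraries lay above all WT libraries, Max-KO 3 being the highest. The log2 difference was 0.68 ± 0.11 (SE), with a 95% interval of 0.42 to 0.94 (limma adjusted p = 0.00143), and a ratio of means of 1.61. It was 1.11 under quantile normalization.

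Klf4, also known as one of the reprogramming factors (ENSMUSG00000003032; chromosome 4, 55527143 to 55532466, minus strand), had 47.1, 45.3 and 42.3 FPKM in Max-KO cells, against 16.8, 17.0 and 15.7 FPKM in WT cells. The groups were far apart relative to their spread. The log2 difference was 1.39 ± 0.07 (SE; limma adjusted p = 7.05e-06), and the mean was 2.72 times that of WT. Klf5, which acts in the inner cell mass and the trophectoderm (ENSMUSG00000005148; chromosome 14, 99298691 to 99315036, plus strand), had 70.0, 59.1 and 55.3 FPKM in Max-KO cells, against 31.6, 30.8 and 30.9 FPKM in WT cells. Here too every Max-KO library was above every WT library, and the spread was wider in Max-KO. The log2 difference of Klf5 was 0.95 ± 0.09 (SE; limma adjusted p = 0.000104).

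Within the Max-KO group, library 3 was at an extreme for each of the 10 factors. It held the highest levels of Klf2, Esrrb, Tfcp2l1, Tbx3 and Prdm14, and the lowest of Klf4, Klf5, Nr5a2, Nr0b1 and Zfp42. Klf2 made up 82.5%, 85.3% and 88.1% of the summed FPKM of the 3 KLF genes in Max-KO 1 to 3, against 88.6%, 88.4% and 90.2% in WT 1 to 3. Its share was thus lower in each Max-KO library than in any WT library, although its level was higher. The 3 genes summed to 732 ± 77.8 FPKM in Max-KO cells and 437 ± 34.7 FPKM in WT cells (SD, n = 3 each).

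The promoter of Klf4 is shown because it held the only E-box among the promoters examined, CACGTG, the sequence that MYC and MAX dimers bind. RefSeq promoters, 250 bases before to 50 bases after a start site (GRCm38.p6), were in the table for 7 of the 10 genes, as 9 windows, and Klf5, Tbx3 and Prdm14 had no entry. The window of Klf4 is on the minus strand at chr4:55532426-55532725, is given 5′ to 3′, and the capitals mark the E-box, which lies 182 to 177 bases before the start.
Klf4: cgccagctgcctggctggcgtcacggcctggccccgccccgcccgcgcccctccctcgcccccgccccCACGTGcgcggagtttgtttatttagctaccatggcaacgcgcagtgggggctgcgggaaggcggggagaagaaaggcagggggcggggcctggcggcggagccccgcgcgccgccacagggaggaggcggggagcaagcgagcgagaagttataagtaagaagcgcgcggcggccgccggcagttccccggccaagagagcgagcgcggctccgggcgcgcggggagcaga
An E-box stood in 1 of the 9 windows, and in 7.15% of all 32851 promoter windows in the table. The Klf4 window was also rich in CpG, with 40 CpG dinucleotides beside a median of 7 over all windows, and that of Klf2 held 32.

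Other members of the KLF family did not move as 1 group. Of 14 further KLF genes, 11 passed the filter, of which 3 rose (Klf15, Klf8 and Klf9) and 2 fell (Klf16 and Klf13), with a median log2 difference of 0.07. The calls made up 45.5% of these 11 genes, beside 66.2% of all genes tested. Klf15, known as a metabolic regulator, averaged 12.7 ± 0.771 FPKM in Max-KO cells and 3.16 ± 0.365 FPKM in WT cells (SD, n = 3 each; log2 difference 1.72 ± 0.10 SE, limma adjusted p = 1.44e-05). Klf8 averaged 23.8 ± 0.367 FPKM in Max-KO cells and 13.5 ± 0.313 FPKM in WT cells, and Klf16 12.3 ± 1.259 FPKM in Max-KO cells and 28.6 ± 3.55 FPKM in WT cells (SD, n = 3 each). Calls in the family changed with the scaling: 5 were higher as TPM, and 4 were lower with median-ratio scaling, likewise with quantile normalization. Klf2, Klf4 and Klf5 together held 73.5% to 76.0% of the summed FPKM of the 17 KLF genes in Max-KO libraries and 64.6% to 69.2% in WT libraries.

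**Figure D2:**
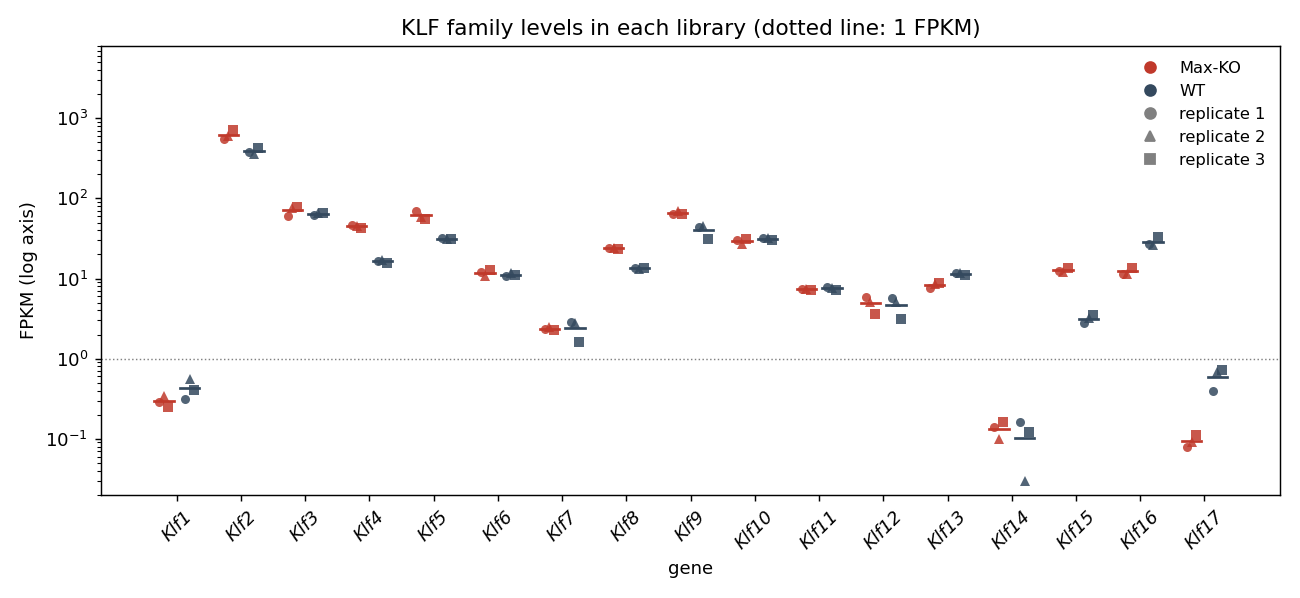
FPKM on a log axis for all 17 KLF genes, with 3 Max-KO libraries (red) left of 3 WT libraries (dark), a bar at each mean, and a dotted line at 1 FPKM. Klf2 stands above the rest of the family in both groups, Klf4, Klf5 and Klf15 are higher in Max-KO libraries, Klf16 is lower, and 3 genes lie under 1 FPKM in all 6 libraries.

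Tfcp2l1 and Tbx3 moved furthest. Tfcp2l1, a grainyhead-like factor downstream of LIF and STAT3 (ENSMUSG00000026380; chromosome 1, 118627945 to 118685168, plus strand), had 80.3, 76.98 and 85.5 FPKM in Max-KO cells, against 26.6, 27.9 and 27.8 FPKM in WT cells. The difference was many times the spread of either group, with an SD of 5.33% of the mean in Max-KO cells and 2.48% in WT cells. The log2 difference was 1.53 ± 0.06 (SE), with a 95% interval of 1.39 to 1.67 (limma adjusted p = 3.55e-06), and the mean was 2.95 times that of WT.

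Tbx3, a T-box factor that also acts in the primitive endoderm and in limb development (ENSMUSG00000018604; chromosome 5, 119670669 to 119684724, plus strand), had 32.7, 30.3 and 32.9 FPKM in Max-KO cells, against 4.83, 4.25 and 3.82 FPKM in WT cells. It was the lowest of the 10 factors in WT libraries and passed Prdm14 in Max-KO libraries. Its log2 difference of 2.64 ± 0.09 (SE; 95% interval 2.42 to 2.86, limma adjusted p = 2.86e-06) was the 252nd highest of the 14661 genes tested, and the ratio of means was 7.44. An antisense gene, Tbx3os1, shares exon sequence with Tbx3 on the opposite strand and was listed at 1.09, 0.37 and 0.68 FPKM in Max-KO cells, against 0.08, 0 and 0.03 FPKM in WT cells. The labels do not state whether the libraries were stranded, and without strand the reads of this pair cannot be told apart where they overlap. The antisense gene's listed level was far below that of Tbx3 in each library. That level depends on how overlapping reads were assigned, so the antisense gene's part in the Tbx3 values was not tested.

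**Figure D3:**
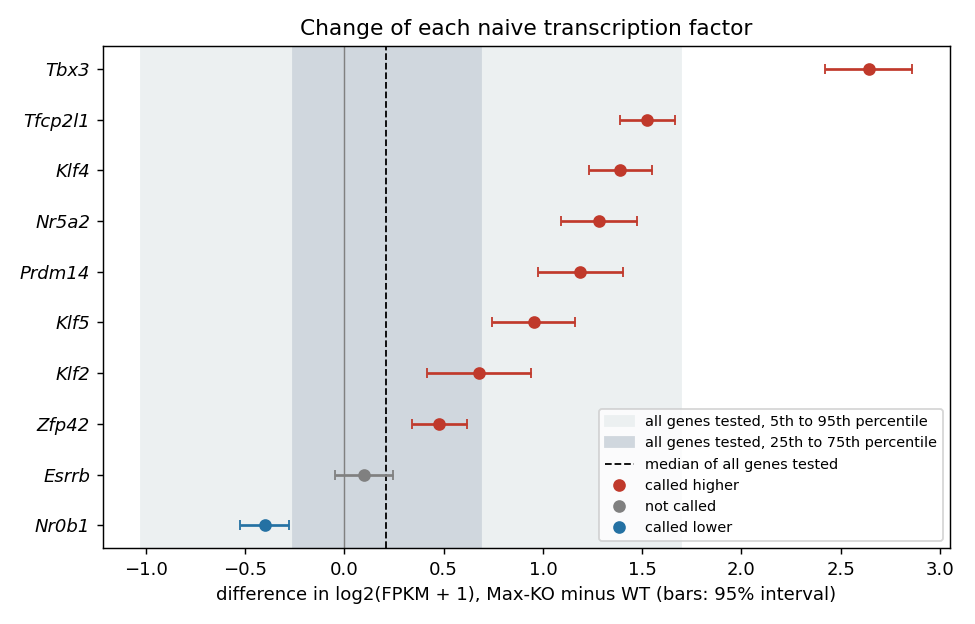
Difference in log2(FPKM + 1), Max-KO minus WT, for each factor with its 95% interval (limma), over grey bands for the middle of all 14661 genes tested and a dashed line at their median. Tbx3 at 2.64 lies beyond the 95th percentile of all genes (1.69), 8 factors lie above the median of 0.21, and Esrrb and Nr0b1 lie below it.

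The promoter of Tfcp2l1 is shown because 2 KLF boxes (GGGNGTGG, searched on both strands) stood close before its start. The window lies on the plus strand at chr1:118627695-118627994, and the capitals mark the boxes, which begin 61 and 47 bases before the start, both in reverse orientation.
Tfcp2l1: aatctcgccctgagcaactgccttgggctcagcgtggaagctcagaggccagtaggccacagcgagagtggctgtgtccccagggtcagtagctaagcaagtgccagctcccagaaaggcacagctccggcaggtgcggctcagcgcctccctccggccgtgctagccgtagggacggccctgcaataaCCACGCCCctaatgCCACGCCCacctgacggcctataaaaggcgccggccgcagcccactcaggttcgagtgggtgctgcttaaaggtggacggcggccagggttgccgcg
KLF boxes stood in 3 of the 9 windows, those of Tfcp2l1, Zfp42 and 1 of the 2 starts of Nr5a2, and in 17.6% of all windows. With 9 windows, the share among the factors is a description only.

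Of the 3 nuclear receptors among the factors, Nr5a2 rose, Nr0b1 fell and Esrrb was not called. Esrrb, an orphan receptor at the centre of the naive network (ENSMUSG00000021255; chromosome 12, 86361117 to 86521628, plus strand), had 191, 194 and 216 FPKM in Max-KO cells, against 182, 187 and 191 FPKM in WT cells. The groups overlapped, and Max-KO 3 stood above the other 5 libraries. The log2 difference of 0.10 ± 0.06 (SE; 95% interval −0.05 to 0.24) missed the threshold (limma adjusted p = 0.193). Its direction depended on the scaling: it was −0.10 under median-ratio scaling (adjusted p = 0.245), whereas it was called higher with quantile normalization (0.32, adjusted p = 0.00286) and as TPM (0.33, adjusted p = 0.00117).

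Nr5a2, also called LRH-1, a receptor that binds the Pou5f1 promoter (ENSMUSG00000026398; chromosome 1, 136842571 to 136960448, minus strand), had 62.4, 59.0 and 51.3 FPKM in Max-KO cells, against 22.4, 23.4 and 23.1 FPKM in WT cells. All Max-KO libraries were more than 2 times the WT mean. Its log2 difference was 1.28 ± 0.08 (SE; limma adjusted p = 1.87e-05).

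Nr0b1, also called DAX1, an atypical receptor without the usual DNA-binding domain that binds OCT4 and other nuclear receptors as a repressor (ENSMUSG00000025056; chromosome X, 86191764 to 86195947, plus strand), was the factor that fell. It had 59.8, 57.6 and 56.6 FPKM in Max-KO cells, against 74.5, 76.5 and 79.7 FPKM in WT cells. The groups did not overlap, and the Max-KO mean was 75.4% of the WT mean. The log2 difference was −0.40 ± 0.05 (SE), with a 95% interval of −0.52 to −0.28 (limma adjusted p = 0.000472), and it was −0.17 after rescaling to TPM, where the call held (adjusted p = 0.0162).

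The promoter of Nr0b1 is shown as that of the factor that fell. It held none of the 6 motifs searched, which were the E-box CACGTG, the T-box site AGGTGTGA, the E2F6 site GGCGGGAA, the KLF box GGGNGTGG, the octamer ATGCAAAT bound by OCT4, and the extended receptor half-site TCAAGGTCA bound by ESRRB, each on both strands. The window lies on the plus strand at chrX:86191525-86191824, and it has no capitals because no motif matched.
Nr0b1: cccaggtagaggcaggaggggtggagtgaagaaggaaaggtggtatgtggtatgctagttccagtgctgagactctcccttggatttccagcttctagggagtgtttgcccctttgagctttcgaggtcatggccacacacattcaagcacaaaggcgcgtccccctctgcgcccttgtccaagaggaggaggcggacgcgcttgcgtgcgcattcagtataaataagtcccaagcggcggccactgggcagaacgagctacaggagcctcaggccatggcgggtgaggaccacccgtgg
Neither the T-box, the E2F6 nor the ESRRB sequence stood in any of the 9 windows, and they stood in 1.28%, 2.19% and 0.42% of all windows. No match says only that these letters are absent from the window.

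Prdm14, a PR-domain zinc finger protein that acts in naive cells and in primordial germ cells (ENSMUSG00000042414; chromosome 1, 13113457 to 13127163, minus strand), had 17.9, 18.1 and 20.9 FPKM in Max-KO cells, against 7.30, 7.63 and 8.31 FPKM in WT cells. The groups were well separated, and it was the lowest of the 10 factors in Max-KO cells. The ratio of means was 2.45, with a log2 difference of 1.19 ± 0.09 (SE; limma adjusted p = 4.27e-05).

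PRDM14 is known to repress DNA methyltransferases and FGF receptors in mouse cells, working with the corepressor CBFA2T2. Of 5 such genes listed, 2 rose, 1 fell and 2 were not called, that is 60% called beside 66.2% of all genes tested. Dnmt3b, a de novo methyltransferase, fell to 39.8 ± 6.34 FPKM in Max-KO cells, against 85.5 ± 1.06 FPKM in WT cells (SD, n = 3 each; log2 difference −1.10 ± 0.11 SE, limma adjusted p = 0.000155). Dnmt3l, its catalytically inactive cofactor, rose to 837 ± 35.6 FPKM in Max-KO cells, against 407 ± 27.1 FPKM in WT cells (log2 difference 1.04 ± 0.07 SE, limma adjusted p = 2.01e-05). These 2 genes thus moved in opposite directions. Fgfr1 averaged 26.5 ± 3.03 FPKM in Max-KO cells and 20.8 ± 0.291 FPKM in WT cells, a call (adjusted p = 0.0148) lost under median-ratio scaling (adjusted p = 0.217), under quantile normalization (0.155), without Max-KO replicate 1 (0.0515) and without Max-KO replicate 3 (0.0513).

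Cbfa2t2 averaged 21.2 ± 0.716 FPKM in Max-KO cells and 24.2 ± 0.117 FPKM in WT cells (SD, n = 3 each; log2 difference −0.19 ± 0.06 SE, limma adjusted p = 0.0254). The call was lost in each fit without Max-KO replicate 2 or 3 or WT replicate 1 or 2 (adjusted p = 0.0711, 0.0664, 0.0743 and 0.0634), and the difference was 0.04 after rescaling to TPM. The related Cbfa2t3 and Runx1t1 did not pass the filter.

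Zfp42, also called Rex1, a YY1-related zinc finger protein used as a marker of the naive state (ENSMUSG00000051176; chromosome 8, 43295063 to 43306980, minus strand), had 69.8, 69.8 and 69.0 FPKM in Max-KO cells, against 52.6, 49.7 and 46.8 FPKM in WT cells. The Max-KO libraries differed from each other by less than 1 FPKM and lay above every WT library. Its log2 difference was 0.48 ± 0.06 (SE; limma adjusted p = 0.000341), and it was 0.29 under median-ratio scaling, where the call held.

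The promoter of Zfp42 is shown because it held both an octamer, the element OCT4 binds, and a KLF box. The window is on the minus strand at chr8:43306960-43307259, given 5′ to 3′, and the capitals mark the octamer, 186 to 179 bases before the start, and the KLF box, 75 to 68 bases before it, both in reverse orientation.
Zfp42: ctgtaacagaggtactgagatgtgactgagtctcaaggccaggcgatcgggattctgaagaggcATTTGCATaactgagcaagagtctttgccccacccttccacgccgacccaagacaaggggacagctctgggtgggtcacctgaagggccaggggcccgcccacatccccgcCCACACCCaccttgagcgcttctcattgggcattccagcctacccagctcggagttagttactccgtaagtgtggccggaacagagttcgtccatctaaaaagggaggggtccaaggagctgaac
The octamer stood in this 1 of the 9 windows and in 1.74% of all windows.

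The order of the levels changed between the groups. In Max-KO cells it ran Klf2, Esrrb, Tfcp2l1, Zfp42, Klf5, Nr0b1, Nr5a2, Klf4, Tbx3 and Prdm14, and the ranges of the neighbours Zfp42 and Klf5, Klf5 and Nr0b1, and Nr0b1 and Nr5a2 overlapped. In WT cells it ran Klf2, Esrrb, Nr0b1, Zfp42, Klf5, Tfcp2l1, Nr5a2, Klf4, Prdm14 and Tbx3, and no neighbours overlapped. Tfcp2l1 stood in place 3 in Max-KO cells and place 6 in WT cells, and Nr0b1 in place 6 in Max-KO cells and place 3 in WT cells. Among the 14661 genes tested, ranked by mean level, Tbx3 was number 3459 in Max-KO cells and number 9509 in WT cells, and Tfcp2l1 number 1254 in Max-KO cells and number 3674 in WT cells. Klf2 was number 137 in Max-KO cells and number 255 in WT cells. The 10 factors together held 0.187% to 0.209% of the FPKM of all Ensembl genes in Max-KO libraries and 0.106% to 0.112% in WT libraries, and Klf2 held 46.7% to 53.4% of that sum in Max-KO libraries and 46.2% to 50.1% in WT libraries.

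The signals that feed the factors were followed in 3 lists, of which 57.1% (LIF and STAT3), 70.0% (WNT and TCF7L1) and 76.9% (FGF and ERK) of the genes tested were called, beside 66.2% of all genes tested. In the LIF and STAT3 pathway 4 of 7 genes rose and none fell, with a median log2 difference of 0.66. Lifr, the LIF receptor, averaged 23.6 ± 2.61 FPKM in Max-KO cells and 12.6 ± 1.83 FPKM in WT cells, and Jak1, its kinase, 20.5 ± 0.785 FPKM in Max-KO cells and 11.1 ± 0.242 FPKM in WT cells (SD, n = 3 each). Il6st, the shared coreceptor gp130, had a log2 difference of 0.70 ± 0.06 (SE; limma adjusted p = 8.46e-05), and Stat3 rose too. Lif, Socs3 and Ptpn11 were not called, and their direction changed with the scaling: Socs3 and Ptpn11 were called lower under median-ratio scaling and higher as TPM, and Lif was called lower with quantile normalization.

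In the WNT and TCF7L1 list 6 of 10 genes rose and 1 fell, with a median of 0.30, and 2 rose under median-ratio scaling. Axin2, a target and brake of WNT signalling, averaged 10.2 ± 3.28 FPKM in Max-KO cells and 2.09 ± 0.111 FPKM in WT cells (SD, n = 3 each; log2 difference 1.82 ± 0.20 SE, limma adjusted p = 0.000199). Its Max-KO libraries were spread widely, at 13.9, 9.11 and 7.66 FPKM, and all lay above the WT libraries. Gsk3b, the kinase that marks β-catenin for destruction, averaged 16.2 ± 0.992 FPKM in Max-KO cells and 10.4 ± 0.615 FPKM in WT cells. Apc, a scaffold of the same complex, was called higher (0.57 ± 0.18 SE, limma adjusted p = 0.0265), a call lost without any 1 of the Max-KO libraries (adjusted p = 0.0569, 0.0774 and 0.0675) and under median-ratio scaling (0.0812), quantile normalization (0.122) and no filter (0.0554). Axin1 fell by 0.19 on the log2 scale (limma adjusted p = 0.0209), with a difference of 0.03 as TPM. That call was also lost without Max-KO replicate 3 (adjusted p = 0.0571) and without WT replicate 2 (0.0634). Tcf7l1 itself, the repressor, had 45.8, 44.3 and 52.3 FPKM in Max-KO cells, against 40.7, 42.0 and 46.5 FPKM in WT cells, and was not called (limma adjusted p = 0.184), but was called higher as TPM (0.36).

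In the FGF and ERK list 8 of 13 genes rose and 2 fell, with a median of 0.52. Egr1, an immediate early gene that ERK induces, averaged 43.1 ± 0.895 FPKM in Max-KO cells and 6.93 ± 0.229 FPKM in WT cells (SD, n = 3 each; log2 difference 2.48 ± 0.06 SE, limma adjusted p = 8.17e-07). Spry4, a feedback inhibitor, averaged 68.1 ± 4.11 FPKM in Max-KO cells and 22.1 ± 1.46 FPKM in WT cells, and Etv4, an ETS factor downstream of FGF, 101.8 ± 9.73 FPKM in Max-KO cells and 37.4 ± 3.57 FPKM in WT cells. The 2 that fell were Mapk3, which encodes ERK1 (18.3 ± 3.21 FPKM in Max-KO cells and 45.1 ± 4.48 FPKM in WT cells), and Etv5, a relative of Etv4 (log2 difference −1.03). RNA levels do not measure pathway activity.

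Of 17 other genes known from the naive state, 13 rose, 3 fell (Dppa3, Fgf4 and Tfe3) and 1 was not called, with a median log2 difference of 0.53. That was 94.1% called, beside 66.2% of all genes tested. Manba, a lysosomal mannosidase, averaged 233 ± 13.3 FPKM in Max-KO cells and 109 ± 13.0 FPKM in WT cells, and Tet2, a 5-methylcytosine dioxygenase, 43.0 ± 2.74 FPKM in Max-KO cells and 21.1 ± 4.31 FPKM in WT cells (SD, n = 3 each). Dppa3, a maternal factor also called Stella, moved the other way, with a log2 difference of −1.47 ± 0.07 (SE; limma adjusted p = 6.79e-06). The call of Tfe3 was marginal (log2 difference −0.17, limma adjusted p = 0.0392). It was lost with the replicate block, no filter or limma without trend and robust, without Max-KO 1, Max-KO 3, WT 1, WT 2 or WT 3, and as TPM, where the call of Fgf4 was lost too. The stem cell markers Pou5f1, Sox2, Nanog, Utf1, Tdgf1 and Sall4 were all above 70 FPKM in all 6 libraries, which fits the cell type label. Of these, 4 rose, 1 (Utf1) fell and 1 (Pou5f1) was not called. Nanog and Sall4, which rose, were also among the 17 other naive-state genes, so the lists share them. Pou5f1 was called higher as TPM, with quantile normalization, at a pseudocount of 0.1 and without WT 3.

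**Figure D4:**
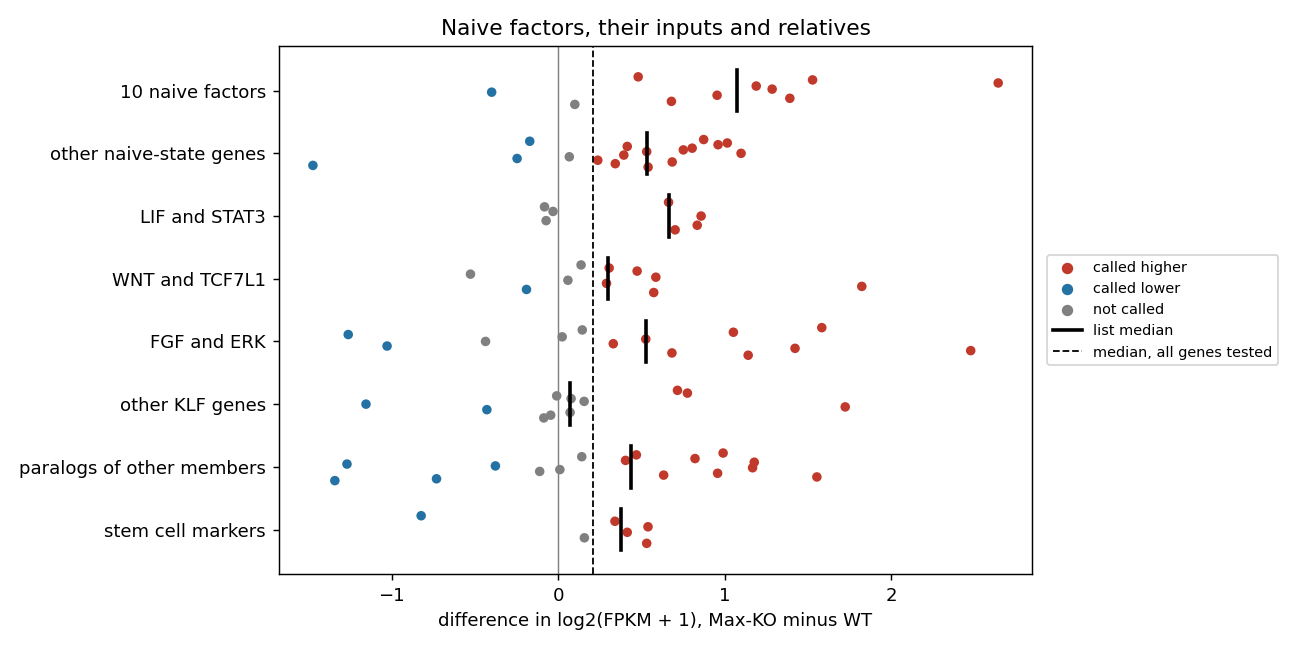
Difference in log2(FPKM + 1), Max-KO minus WT, for each tested gene (point) of 8 lists, coloured by limma call, with a bar at each list's median and a dashed line at the median of all genes tested (0.21). The 10 naive factors have a median of 1.07, the LIF and STAT3 list 0.66, other naive-state genes 0.53 and other KLF genes 0.07. Nanog and Sall4 are shown both with the other naive-state genes and with the stem cell markers.

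Close relatives of the other 7 factors went both ways. Of 23 such paralogs 16 passed the filter, of which 9 rose and 4 fell, with a median log2 difference of 0.44, and 2 of the 9 passed only through their Max-KO level. The calls made up 81.25% of the paralogs tested, beside 66.2% of all genes tested. Grhl2, an epithelial grainyhead factor of the Tfcp2l1 family, averaged 13.4 ± 1.51 FPKM in Max-KO cells and 3.93 ± 0.736 FPKM in WT cells (SD, n = 3 each). Esrra, the relative of Esrrb that controls mitochondrial genes, averaged 5.78 ± 0.778 FPKM in Max-KO cells and 16.1 ± 1.25 FPKM in WT cells (log2 difference −1.34 ± 0.11 SE, limma adjusted p = 6.14e-05). The nearest relatives of Esrrb, Nr5a2 and Nr0b1, namely Esrrg, Nr5a1 and Nr0b2, were at 0.15 FPKM or less in every library.

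The 20 tested protein-coding genes next to the 10 factors, 1 on each side, comprised 13 that rose, 4 that fell and 3 that were not called, with a median log2 difference of 0.43. Over all genes tested, 43.0% were called higher and 23.2% lower, with a median of 0.21. They lay 11.9 to 1628 kb from the factor. Only Gpatch2l beside Esrrb and Mageb4 beside Nr0b1 were called with a change of at least 1 on the log2 scale. Gpatch2l averaged 11.8 ± 0.414 FPKM in Max-KO cells and 5.29 ± 0.146 FPKM in WT cells, next to a factor whose own groups overlapped. Mageb4, a germline gene of a multigene family whose level is uncertain, averaged 7.41 ± 1.79 FPKM in Max-KO cells and 0.647 ± 0.0802 FPKM in WT cells (SD, n = 3 each), next to the factor that fell. Its WT level was under the filter, so it was tested only through its Max-KO level.

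Markers of other cell types moved in the same libraries, and their part in the changes of the naive factors was not tested. Among all genes tested, 66.2% were called in either direction. Of 9 germ cell markers 7 rose, none fell, and Nanos3 and Tfap2c were not called. The 9 summed to 992 to 1026 FPKM in Max-KO libraries and 61.2 to 68.0 FPKM in WT libraries. Dazl, Taf7l and Mael had the largest log2 differences, whereas that of Nanos3 was 0.37 ± 0.23 (SE; limma adjusted p = 0.192). Taf7l was tested only through its Max-KO level. Tfap2c, also a trophoblast marker, was not called (−0.30 ± 0.12 SE, limma adjusted p = 0.0536), but was called lower with the replicate block, median-ratio scaling, quantile normalization or the filter at 5 FPKM, and without Max-KO 3 (adjusted p = 0.00846). Prdm14 and Tfcp2l1 are also expressed in germ cells. All 7 of the 2-cell-like markers found rose, each tested only through its Max-KO level. They summed to 49.7 to 67.2 FPKM in Max-KO libraries and 0 to 0.12 FPKM in WT libraries, and 5 of them were listed at 0 in every WT library. The largest log2 differences were in Zscan4f (26.1 FPKM on average in Max-KO cells and 0.01 FPKM in WT cells), Gm4340 (15.8 FPKM in Max-KO cells) and Zscan4c (6.22 FPKM in Max-KO cells), the last 2 listed at 0 in WT libraries.

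Primitive endoderm markers stayed low, at sums of 5.71 to 10.2 FPKM over 7 genes in Max-KO libraries and 1.97 to 2.42 FPKM in WT libraries. Of these, 4 were tested and all 4 rose, 3 of them only through their Max-KO level, and under quantile normalization 1 was called. For this and the later counts here, 43.0% of all genes tested were called higher and 23.2% lower. Pdgfra, Gata4 and Sox17, with the largest differences (1.08, 0.95 and 0.91), averaged 1.23, 1.35 and 1.27 FPKM in Max-KO cells and 0.05, 0.21 and 0.15 FPKM in WT cells. The call of Sox17 was lost without Max-KO 1, Max-KO 2, WT 1 or WT 2. Max-KO 3 had the lowest of the 3 Max-KO sums. Tbx3, which also acts in this lineage, was at 32.7, 30.3 and 32.9 FPKM in Max-KO 1 to 3, and a link between Tbx3 and these markers was not tested. Trophoblast markers summed to 105 to 117 FPKM in Max-KO libraries and 88.5 to 97.5 FPKM in WT libraries, mostly from Krt8, Krt18 and Tfap2c. Of 6 tested, 4 rose and none fell, that is 66.7% called beside 66.2% of all genes tested. Those called were Hand1 (log2 difference 1.63), Elf5 (1.33, tested only through its Max-KO level), Eomes (0.56) and Krt18 (0.41). Krt18 was not called with the replicate block, no filter, median-ratio scaling or quantile normalization, or without Max-KO 1, Max-KO 2, WT 1, WT 2 or WT 3, and Eomes was not called with quantile normalization. The defining factor Cdx2 was at 0.40 FPKM or less in every library. Of 5 primed epiblast markers tested, Sox3 rose (1.48), Dnmt3b (−1.10), Pou3f1 (−0.93) and Zic2 (−0.92) fell, and Otx2 was called higher (0.52, limma adjusted p = 0.0355). The call of Otx2 was lost without Max-KO 2, Max-KO 3, WT 1, WT 2 or WT 3, and with median-ratio scaling, quantile normalization or no filter. The defining marker Fgf5 was at 0.07 FPKM or less in every library. Fibroblast feeder markers summed to 8.11 to 10.3 FPKM in Max-KO libraries and 8.11 to 8.38 FPKM in WT libraries, with 1 of 2 tested called higher (Col1a1, not called under quantile normalization), and Dcn, Lum, Postn and Pdgfrb were each under 0.4 FPKM in every library.

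**Figure D5:**
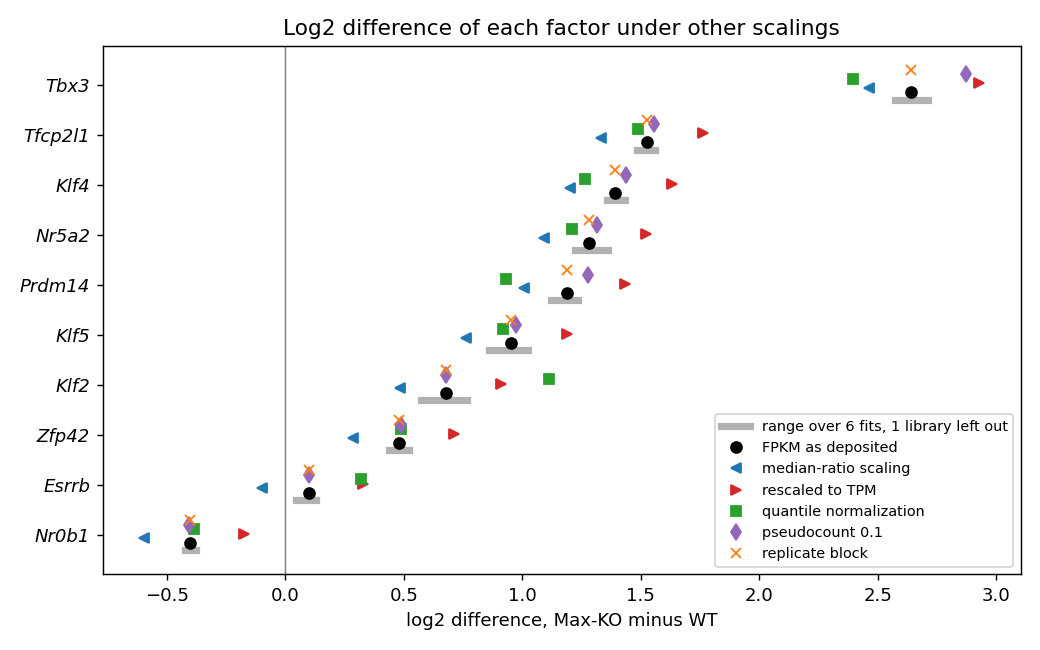
Log2 difference, Max-KO minus WT, of each factor with the FPKM as deposited (black), under 3 other scalings, a pseudocount of 0.1 and a replicate block, with a grey bar for the range of 6 fits that each left out 1 library. The 9 called factors stay on their side of 0 at each setting shown, and Esrrb lies at −0.10 under median-ratio scaling and at 0.33 after rescaling to TPM.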

How the data were processed

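RNA sequencing of 3 Max-KO and 3 WT embryonic stem cell samples was deposited as 1 FPKM value per gene and library, with 2 decimals. The FPKM were made by the authors, and the submitters' processing notes list HISAT2 2.1.0, FastQC, DESeq 1.26.0 and RSEM, and build GRCm38.p6, without saying what each did. Symbols and coordinates came from GENCODE M21 (GRCm38), which held 55450 of the 55536 Ensembl identifiers. The 1153 assembled loci were left out.

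The 14661 genes whose mean reached 1 FPKM in either group were fitted as log2(FPKM + 1) in R 4.3.3 using limma 3.58.1 (2-sided, with trend and robust moderation), genotype being the only factor. The pseudocount of 1 shrinks log2 differences at low FPKM. P-values were Benjamini-Hochberg adjusted over all genes tested. The depth estimate used 1-transcript genes, where 80.1% to 84.9% of low values lay within 0.15 of a whole number of fragments at the best fitting step. Changes of 1 or 2 on the log2(FPKM + 1) scale were planted in simulated data with 12755 genes. Of raised genes, 48 of 50 (by 2) and 36 of 50 (by 1) were called. Of lowered genes, 47 of 49 (by 2) and 41 of 49 (by 1) were called, beside 11 of 12557 unchanged genes. Far fewer genes were changed there than were called in the real data (66.2%), so these rates do not carry over.

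The 10 members and all gene lists were chosen with earlier results of these data known. The text names all 10 members, and per list up to 3 called genes with the largest log2 differences plus 1 in the opposite direction; neighbours are named at an absolute difference of at least 1. The values of 1 paralog that this rule names are not reported here. Other genes named beside small counts were picked after their values were seen. Tables were handled with pandas 2.3.3 in Python 3.11.15, and 14 alternative fits were run.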

Additional observations from a re-analysis of the deposited data

How the results depend on the processing

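The 9 calls among the 10 naive factors held, with their direction, in all 14 alternative fits: 6 that each left out 1 library, 3 other scalings, a pseudocount of 0.1, no filter, a filter at 5 FPKM, limma without trend and robust, and the replicate block. The number called higher was 8 in each, or 9 with quantile normalization and as TPM, where Esrrb was added, and the number called lower was 1 in each. Across the alternatives the log2 difference of Tbx3 ranged from 2.40 to 2.93, that of Klf2 from 0.48 to 1.11, and that of Nr0b1 from −0.59 to −0.17. Of the tested genes named here, 9 changed direction in some fit, Nanos3 not being followed in this count. Under median-ratio scaling these were Esrrb (−0.10), Pou5f1 (−0.0406) and Tcf7l1 (−0.0563). As TPM they were Axin1 (0.0317), Cbfa2t2 (0.0357), Tfe3 (0.0541), Lif (0.0784), Ptpn11 (0.1923) and Socs3 (0.146; 0.0364 with quantile normalization). Leaving out 1 library, Lif ranged from −0.1895 to 0.1227 and Ptpn11 from −0.0591 to 0.0050. Median-ratio scaling and TPM multiply each library by 1 factor, by construction. Quantile normalization instead moved genes both ways. It raised the log2 difference of Klf2 from 0.68 to 1.11 and lowered that of Col1a1 from 0.51 to 0.06. The share of all calls that were higher was 64.9%, against 51.4% with median-ratio scaling, 46.7% with quantile normalization and 77.7% as TPM.

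Equal replicate numbers showed no clear pairing of the libraries. Deviations from the group means correlated at 0, 0.02 and 0.09 for numbers 1 to 3. Between unequal numbers they correlated at −0.08 to 0.07. With 3 libraries per group, these values cannot exclude pairing. With the replicate block, 6203 genes were called higher and 3282 lower, against 6300 and 3403 without it, and 8 and 1 of the naive factors; of the genes named, Axin1, Cbfa2t2, Tfe3 and Krt18 lost their calls (adjusted p = 0.0513, 0.0578, 0.0783 and 0.0519) and Tfap2c gained one (0.0499). The FPKM hold no counts, so no count model was fitted, and small differences at low levels are the least certain.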
